A study of Rattus norvegicus with 22 samples.

Results

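Expression of 10 heat shock protein and chaperone genes was followed in the injured hippocampus of the rat, out of 17172 genes in the count table. The genes were taken by name: the small heat shock proteins Hspb1 and Cryab, the HSP70 system genes Hspa8, Hsph1, Dnajb1 and Bag3, the cytosolic HSP90 gene Hsp90aa1, the mitochondrial chaperonin genes Hspd1 and Hspe1, and the collagen chaperone Serpinh1. All 10 names were in the table, and 9 passed the filter on low counts. At 1 day after traumatic brain injury (TBI), Hspb1 was 58.5-fold higher than in sham rats, Bag3 2.47-fold, Serpinh1 2.4-fold and Cryab 1.86-fold. The other 5 tested genes did not pass the test. The calls of Serpinh1 and Cryab were lost when only the groups compared were fitted. With sham day 1 replicate 2 left out, their log2 fold changes were 0.8 and 0.81, against 1.26 and 0.89 with all samples. At 14 days, Hspb1 was still 2.88-fold higher, and it was the only one of the 9 that passed the test.

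The samples were hippocampi from the injured side of adult male Sprague-Dawley rats, 1 rat per sample, after moderate lateral fluid percussion injury (a pressure pulse to the exposed dura) or after sham surgery with the same anesthesia and no pulse. RNA-seq of polyadenylated RNA was available for 2 sham and 4 TBI rats at day 1 and for 4 sham and 4 TBI rats at day 14. The labels name no transgene and no drug treatment, and no age beyond adult. Histone H3K4me3 peak lists of 4 day 1 rats belong to the same series and were not used here, because they carry positions on another genome build and no gene names.

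Heat shock proteins bind unfolded or damaged proteins and either hold them in solution, refold them or pass them on for degradation. When proteins unfold, heat shock factors such as HSF1 bind short inverted repeats of GAA, called heat shock elements, and start transcription of the inducible chaperone genes. In the injured brain the small heat shock protein HSPB1 is known as a product of reactive astrocytes, and HSP70 family members are known as products of stressed neurons.

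Total counts were 15065540 to 23743703 per sample. In bulk tissue, fewer cells of a type and less RNA per cell cannot be told apart. Levels are given as CPM, the count of a gene scaled to a common library size. The CPM of 8 neuron markers summed to 7170 and 10100 in the sham rats of day 1 and to 3380 to 6050 in the injured rats of that day, and to 6370 to 8250 (sham) and 5070 to 6580 (TBI) at day 14, so the labelled tissue carried its neuronal transcripts in every sample. TBI day 1 replicate 1 held the lowest neuron sum, and of 5 hippocampal excitatory neuron markers it held 250 CPM, against 581 to 939 CPM in the other 3 TBI day 1 samples. The same library was the lowest of its group for 6 of the 9 tested chaperone genes. Transcripts of the choroid plexus, an epithelium next to the hippocampus, summed to 8450 CPM over 10 markers in sham day 1 replicate 1 and to 1520 and 7500 CPM in TBI day 14 replicates 2 and 3, against 6.41 to 21.6 CPM in the other 11 samples. At day 1 the endothelial markers summed to 167 and 292 CPM in sham against 258 to 415 CPM in TBI, with 1 of 5 tested genes higher, and 4 red blood cell markers to 263 and 533 against 436 to 1080 CPM, with 0 called in edgeR; the part of these lists in the results was not tested. For the heat shock genes, values without sham day 1 replicate 1 or replicate 2 are given where a call was lost or a direction turned.

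Promoters were read because the inducible chaperone genes share the heat shock element. RefSeq promoters on build GRCr8, 250 bases before to 50 bases after each annotated start, were given for 8 of the 10 genes, all but Cryab and Hsp90aa1. They were searched for 2 adjoining units in opposite orientation, GAANNTTC or TTCNNGAA, and for 3 units, which is such a pair followed after 2 more bases by a further unit in the opposite orientation. Each pair reads the same on both strands and the 2 forms of the triple are each other's reverse complement, so both strands were covered, and overlapping matches were kept. All 8 promoters held a pair, compared with 15.9% of the 33469 promoters in the table. A triple was present in 5 of the 8, namely Hspa8, Hsph1, Hspd1, Hspe1 and Serpinh1, compared with 0.798% of all promoters. Among 72 promoters of related chaperone genes, 19 (26.4%) held a pair and 4 (5.56%) a triple. These are matches of letters in a window and not bound sites.

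The 150 bases before the annotated start are printed 5′ to 3′ for 5 genes, with the matched letters in capitals. Hspb1, Bag3 and Serpinh1 are shown because they rose at day 1, and Hspe1 and Hsph1 because they did not pass the test although they held 3 or more units in a row, which Hspb1 and Bag3 did not. The stretches are chr12:26432302-26432451 on the minus strand for Hspb1, chr1:192533310-192533459 on the plus strand for Bag3, chr1:163062977-163063126 on the minus strand for Serpinh1, chr9:64084177-64084326 on the plus strand for Hspe1 and chr12:10427218-10427367 on the plus strand for Hsph1.
Hspb1: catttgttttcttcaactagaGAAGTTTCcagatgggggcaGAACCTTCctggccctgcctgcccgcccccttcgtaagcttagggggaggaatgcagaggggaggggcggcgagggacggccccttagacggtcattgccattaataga
Bag3: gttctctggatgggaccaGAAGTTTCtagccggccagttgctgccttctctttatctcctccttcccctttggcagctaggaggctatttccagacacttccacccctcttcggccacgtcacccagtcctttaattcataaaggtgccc
Serpinh1: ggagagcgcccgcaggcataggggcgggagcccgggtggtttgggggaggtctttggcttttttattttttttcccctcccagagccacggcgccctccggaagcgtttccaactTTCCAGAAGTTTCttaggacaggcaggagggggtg
Hspe1: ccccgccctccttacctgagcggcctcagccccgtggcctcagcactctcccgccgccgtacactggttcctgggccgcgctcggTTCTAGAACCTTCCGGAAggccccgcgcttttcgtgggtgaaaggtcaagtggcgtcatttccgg
Hsph1: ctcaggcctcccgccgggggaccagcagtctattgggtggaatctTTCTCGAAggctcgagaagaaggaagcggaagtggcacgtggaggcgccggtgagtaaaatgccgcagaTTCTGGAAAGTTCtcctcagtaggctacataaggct
The Hspb1 stretch held 2 separate pairs, starting at -129 and -109 from the start, and the Bag3 stretch held 1 pair at -132. In Serpinh1 a run of 13 matched bases began at -35. Hspd1 and Hspe1 lie head to head and their windows shared 211 bases, so the run of 18 matched bases that began at -65 from the Hspe1 start was the same run that began at -242 from the Hspd1 start, read on the other strand. Hsph1 held a pair at -105 and a run of 13 bases at -36. Genes with 3 units were thus found both among those that rose at day 1 (Serpinh1) and among those that did not pass the test (Hsph1, Hspd1, Hspe1).

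**Figure D1:**
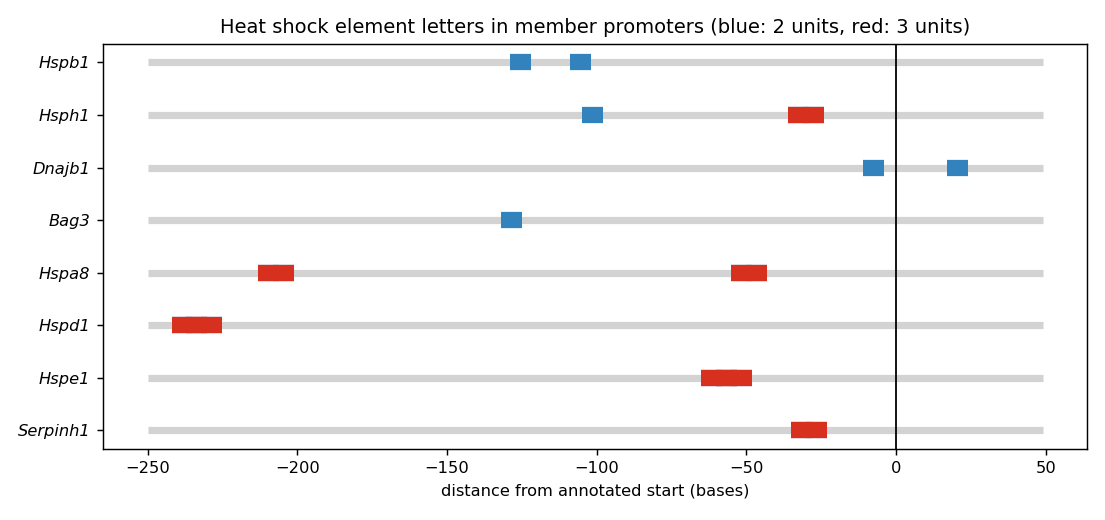
Position of heat shock element letters in the 8 RefSeq promoters. The x axis is the distance from the annotated start in bases, grey bars are the 300-base windows, blue blocks are 2 units and red blocks 3 units. Every window holds a block, and red blocks are present in Hsph1, Hspa8, Hspd1, Hspe1 and Serpinh1.

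Hspb1 encodes HSP27, a small heat shock protein that holds unfolding proteins and binds actin filaments. Its CPM was 11.8 and 5.44 in the 2 sham day 1 rats. It was 511, 550.4, 494 and 448 CPM in the 4 TBI day 1 rats. At day 14 it was 16.8, 12.4, 8.71 and 12.1 CPM in sham and 38.3, 27.8, 30.3 and 47.5 CPM in TBI. Every TBI sample lay above every sham sample at both days, and the 4 TBI day 1 values lay within a narrow range. On the log2 CPM scale the group means were 3.02 ± 0.77 (SD, n = 2) in sham day 1, 8.96 ± 0.12 (n = 4) in TBI day 1, 3.62 ± 0.38 (n = 4) in sham day 14 and 5.14 ± 0.35 (n = 4) in TBI day 14. The log2 fold change at day 1 was 5.87 ± 0.39 (SE, 95% interval 5.05 to 6.69, adjusted p = 6.23e-07, edgeR quasi-likelihood test with Benjamini-Hochberg adjustment over 12875 genes), and it ranked 4 by p among all genes tested. Leaving out sham day 1 replicate 1 gave 6.52 and leaving out replicate 2 gave 5.41, with the call kept in both. At day 14 it was 1.53 ± 0.24 (1.02 to 2.03, adjusted p = 0.000955). The effect at day 1 exceeded that at day 14 by 4.34 ± 0.41 on the log2 scale (3.48 to 5.21, adjusted p = 0.000138). Every TBI sample lay above every sham sample for 9.13% of all genes at day 14. The sham groups of the 2 days overlapped and differed by -0.55 (day 1 minus day 14, -1.19 to 0.10, adjusted p = 0.215). The order of Hspb1 levels was therefore TBI day 1, TBI day 14, and then the 2 sham groups, between which no difference was established. Of the 2 sham day 1 rats, 1 (5.44 CPM) lay below all sham day 14 rats.

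Astrocyte markers were measured beside Hspb1. At day 1 the CPM of 7 astrocyte markers summed to 5810 and 9130 in sham rats and 12700 to 18700 in injured rats. At day 14 the sums were 4870 to 6090 (sham) and 8700 to 12800 (TBI). Of these 7 markers only Gfap, the intermediate filament of reactive astrocytes, was called, by 3.10 ± 0.32 (SE, adjusted p = 2.02e-05) on the log2 scale at day 1 and by 2.06 ± 0.23 (adjusted p = 7.26e-05) at day 14. The median over the 7 was -0.31 at day 1 and 0.33 at day 14, so the larger sums at day 1 went with Gfap and not with most of the list. The CPM of 8 microglia and macrophage markers, of which 5 were higher and 1 lower at day 1 and all 8 higher at day 14, summed to 735 to 964 in injured rats at day 1 and 965 to 1760 at day 14, against 305 to 518 over all sham rats. None of these astrocyte and microglia markers was at 0 throughout a group, and the part of either cell type in the Hspb1 result was not tested.

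Cryab encodes alpha B-crystallin, the small heat shock protein that is abundant in oligodendrocytes and astrocytes. It measured 63.4 and 56.7 CPM in sham day 1 and 114, 151, 109 and 72.2 CPM in TBI day 1. All 4 TBI values lay above both sham values, the lowest of them by less than 10 CPM. The change at day 1 on the log2 scale was 0.89 ± 0.23 (SE, 0.41 to 1.38, adjusted p = 0.0139). At day 14 the groups overlapped, with 33.4 to 41.9 CPM in sham and 33.4 to 45.6 CPM in TBI, and the log2 fold change was 0.10 (-0.29 to 0.48, adjusted p = 0.918). The call at day 1 was lost without sham day 1 replicate 2 (0.81, adjusted p = 0.133) without the 3 libraries that held choroid plexus transcripts (0.96, adjusted p = 0.0635) and when only the groups compared were fitted (0.92, adjusted p = 0.116). At day 1 the CPM of 6 oligodendrocyte markers summed to 11700 and 7970 in sham rats and to 13900, 4270, 7260 and 3290 in injured rats. Of these 6, Cnp was lower (log2 fold change -0.80, adjusted p = 0.0329) and 0 were higher, and the part of oligodendrocytes in the Cryab result was not tested.

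**Figure D2:**
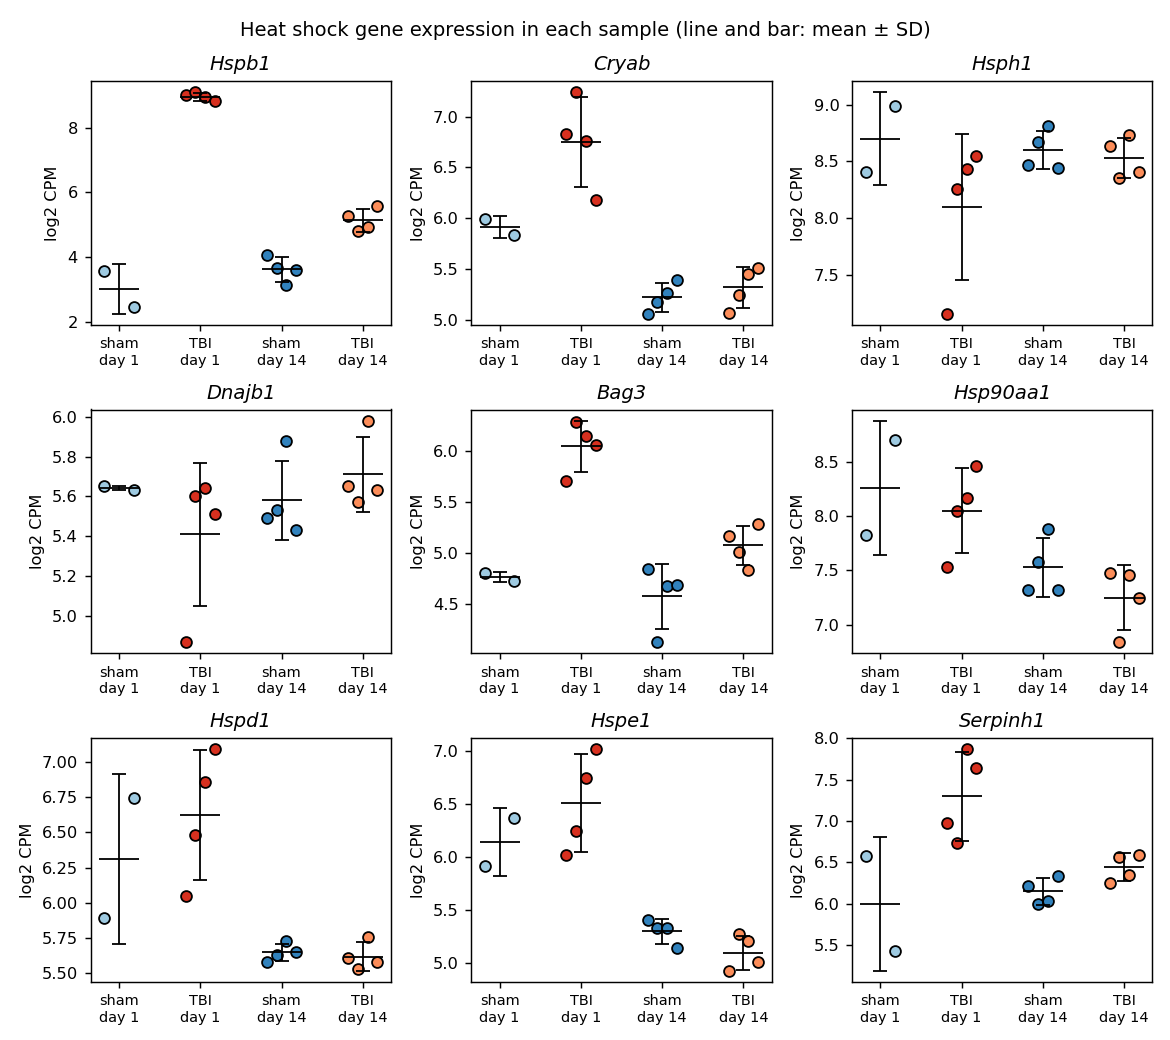
Log2 CPM of the 9 tested genes in each of the 14 samples. Each point is 1 rat, colours are the 4 groups, and the line and bar are the mean and SD. Hspb1 in TBI day 1 (mean 8.96) stands far above all other groups, and Hspd1 and Hspe1 are higher in both day 1 groups than in both day 14 groups.

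Bag3 encodes a nucleotide exchange factor for HSP70 that works with small heat shock proteins to send damaged proteins to autophagy. Its CPM was 27.9 and 26.5 in sham day 1 and 52.4, 78.4, 70.7 and 66.8 in TBI day 1. All TBI day 1 values were clear of sham. The log2 fold change was 1.30 ± 0.21 (SE, 0.85 to 1.75, adjusted p = 0.000754), and it stayed between 1.22 and 1.41 and past the threshold in each of the 25 alternative analyses. At day 14 it was 28.7, 17.4, 25.5 and 25.6 CPM in sham and 35.8, 32.2, 28.6 and 39.1 CPM in TBI. One sham value lay just above the lowest TBI value, and the log2 fold change of 0.48 (0.13 to 0.83, adjusted p = 0.153) did not pass. The effect at day 1 minus that at day 14 was 0.82 (0.27 to 1.38) with an adjusted p of 0.094, so a decline of the Bag3 effect was not established.

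Serpinh1 encodes HSP47, which sits in the endoplasmic reticulum and folds procollagen. It measured 95.3 and 43.1 CPM in sham day 1 and 126, 106, 234 and 199.5 CPM in TBI day 1. The 2 sham rats differed from each other by more than the upper sham rat differed from the lowest TBI rat. The log2 fold change was 1.26 ± 0.32 (SE, 0.57 to 1.96, adjusted p = 0.0145). Without sham day 1 replicate 1, which held the choroid plexus transcripts, it was 1.94 (adjusted p = 0.00334). Without replicate 2 it was 0.80 and the call was lost (adjusted p = 0.204), as it was when only the groups compared were fitted (1.28, adjusted p = 0.122). At day 14 it was 64.1 to 80.8 CPM in sham and 76.2 to 96.4 CPM in TBI, with a log2 fold change of 0.29 (-0.24 to 0.83, adjusted p = 0.753). The CPM of 7 fibroblast and mural cell markers summed to 191 and 378 in sham rats against 448 to 662 in injured rats at day 1, and to 291 to 354 against 266 to 344 at day 14. Tagln was the 1 of these markers that was called at day 1 (3.45, adjusted p = 5.45e-05), none was at 0 throughout a group, and their part in the Serpinh1 result was not tested.

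Of the 9 tested genes, 4 were called higher at day 1, compared with 11.2% of all genes tested, and edgeR called 0 lower, compared with 7.93%, as did limma-voom and DESeq2. None of the 9 had an unadjusted p under 0.05 in the lower direction. The count of 4 was 2 when only the groups compared were fitted, with 557 of 12720 genes then called higher. Without sham day 1 replicate 2 the log2 fold changes of Cryab and Serpinh1 fell to 0.81 and 0.80. The median log2 fold change of the 9 was 0.40, against -0.02 over all genes. Of the 9, 4 had TBI samples entirely above sham, against 16.7% of all genes; they were the 4 called genes, so the separation is no separate evidence. At day 14, 1 of 9 was called higher against a background of 4.07%, 0 were lower in edgeR (0.365% of all genes), the median of the 9 was 0.10 and that of all genes -0.03. By unadjusted p under 0.05, 2 genes were higher at day 14, Hspb1 and Bag3, and 0 were lower. For the difference between the days, 1 of 9 was called higher (background 2.24%) and 0 lower (1.44%) in edgeR, and 4 had an unadjusted p under 0.05. Besides Hspb1 and Bag3 these were Serpinh1 with 0.97 (adjusted p = 0.198) and Cryab with 0.79 (adjusted p = 0.141). The share of all genes under an unadjusted p of 0.05 was not counted, so the unadjusted counts have no background beside them. In edgeR, Serpinh1 (unadjusted p = 0.0292) ranked 1899 of 12875 by p for that difference. Bag3 (unadjusted p = 0.0103) ranked 867 at day 14.

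**Figure D3:**
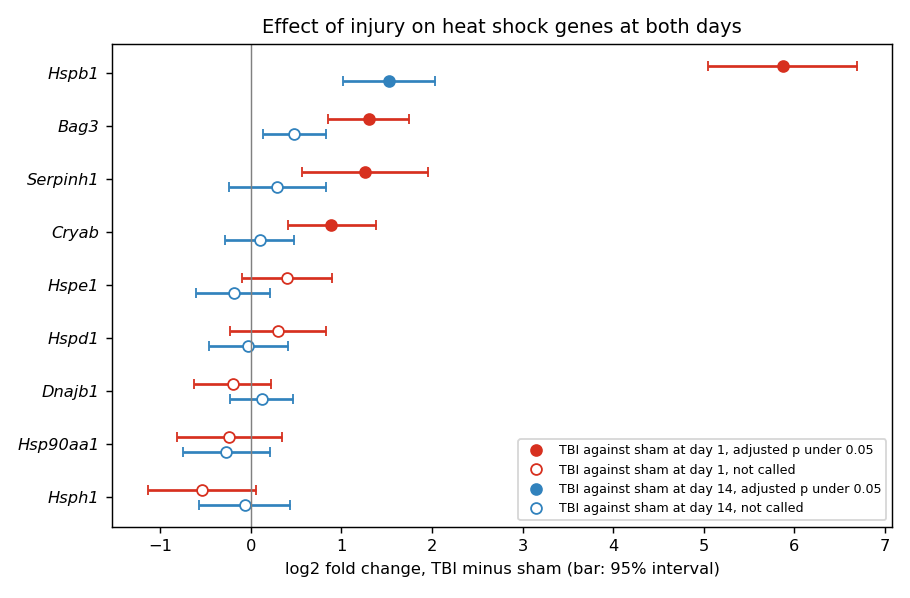
Effect of TBI on the 9 tested genes (x axis, log2 fold change against sham), in red for day 1 and in blue for day 14, with 95% intervals; filled points have an adjusted p under 0.05. Hspb1 (5.87 and 1.53) is filled at both days, and Bag3, Serpinh1 and Cryab at day 1.

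The mitochondrial chaperonin HSP60, encoded by Hspd1, and its lid HSP10, encoded by Hspe1, fold proteins in the matrix. Hspd1 measured 59.3 and 106.5 CPM in sham day 1 and 66.0, 89.3, 116 and 136 CPM in TBI day 1, and the groups overlapped. Hspe1 measured 60.3 and 82.6 CPM in sham day 1 and 64.7, 75.9, 107.5 and 130 CPM in TBI day 1, again with overlap. The log2 fold changes were 0.30 (-0.23 to 0.83, adjusted p = 0.425) for Hspd1 and 0.40 (-0.10 to 0.90, adjusted p = 0.238) for Hspe1. Without sham day 1 replicate 1 they were -0.06 and 0.19, and without replicate 2 they were 0.78 and 0.65, with no call. The larger contrast was between the days. At day 14, Hspd1 measured 47.9 to 52.8 CPM in sham and 46.0 to 54.2 CPM in TBI, and Hspe1 35.1 to 42.3 CPM in sham and 30.3 to 38.7 CPM in TBI. Every day 1 sample of either group lay above every day 14 sample for both genes. The share of all genes with that pattern was not counted. Sham day 1 lay entirely above sham day 14 for 21.3% of all genes, and TBI day 1 above sham day 14 for 22.2%. TBI day 1 was not tested against TBI day 14. Day and any difference in handling between the days cannot be told apart. The 2 genes share a promoter region. The ratio of Hspe1 to Hspd1 counts, which are not divided by length and serve only for comparison between samples, was 0.78 to 1.02 at day 1 and 0.62 to 0.88 at day 14. Their log2 profiles, each centred on its mean, differed by a root mean square of 0.213, so that Hspd1 ranked 15 of 12874 genes by likeness to Hspe1 and Hspe1 ranked 105 by likeness to Hspd1.

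The HSP90 gene Hsp90aa1 and the HSP70 system genes Hsph1 and Dnajb1 showed no call at either day. Hsp90aa1, the stress-inducible cytosolic HSP90 that matures kinases and steroid receptors, measured 227 and 415 CPM in sham day 1 and 185, 265, 288 and 353 CPM in TBI day 1. Its log2 fold change was -0.24 (-0.82 to 0.34, adjusted p = 0.577), and it was 0.26 without sham day 1 replicate 2 (adjusted p = 0.697), so no direction was established. Hsph1, the HSP110 exchange factor, measured 339.7 and 510 CPM in sham day 1 and 143, 307, 345 and 374 CPM in TBI day 1. Only the first TBI replicate lay clearly low, and the log2 fold change was -0.54 (-1.14 to 0.06, adjusted p = 0.191). Dnajb1, the J-domain protein HSP40 that hands clients to HSP70, measured 50.1 and 49.4 CPM in sham day 1 and 29.2, 48.3, 49.9 and 45.4 CPM in TBI day 1. It gave -0.20 (-0.63 to 0.22, adjusted p = 0.507). At day 14 the log2 fold changes were -0.27 (-0.75 to 0.21) for Hsp90aa1, -0.07 (-0.57 to 0.43) for Hsph1 and 0.12 (-0.23 to 0.47) for Dnajb1, all with overlapping groups. At day 1 the interval of Hsph1 reached down to -1.14, and the upper ends of all 3 intervals lay below the rise of Bag3 (1.30).

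Hspa8, the constitutive HSC70, had a total of 2 counts, 1 in each sham day 1 sample and 0 in the other 12 samples. It was not tested. The protein is known as abundant in every cell, so no level is read from these counts, and whether its reads were assigned elsewhere in the counting was not tested. Of the inducible HSP70 genes, Hspa1a had 0 to 6 counts in 13 samples and 49 in TBI day 14 replicate 2, and Hspa1b had 16 to 132 counts in the day 1 samples. Hspa1a and Hspa1b are nearly identical copies whose reads cannot be assigned with certainty. Hspa1b gave a log2 fold change of 0.63 at day 1 (adjusted p = 0.474), which ran from 0.03 to 1.45 with single samples left out.

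The 2 sham groups were compared because surgery itself can move stress genes and because the day 1 baseline rests on 2 rats. Cryab was higher in the day 1 sham rats than in those of day 14 by 0.68 ± 0.22 (SE, adjusted p = 0.0396), Hspd1 by 0.73 ± 0.24 (adjusted p = 0.0473) and Hspe1 by 0.86 ± 0.23 (adjusted p = 0.0182), all on the log2 scale. Hsp90aa1 was at 0.78 with an adjusted p of 0.0534. These were 3 of 9 genes, against 11.3% of all genes higher, and 0 were lower, against 7.88%. Both day 1 sham rats lay above all day 14 sham rats for the same 3 of 9 genes, against 21.3% of all genes, which is no separate evidence. Without sham day 1 replicate 2 none of the 3 passed, with 0.24 for Hspd1 and 0.61 for Hspe1. The Cryab call was also lost without replicate 1 (0.60, adjusted p = 0.144). Day after surgery and any difference in handling between the day 1 and day 14 rats cannot be told apart.

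TBI day 1 was also set against sham day 14, a baseline of 4 rats that it does not share with the day 1 comparison but does share with the day 14 comparison. Of the 9 genes, 6 were called higher, compared with 25% of all genes, and 0 lower, compared with 21%. All injured rats lay above all sham rats for the same 6 of 9 genes, against 22.2% of all genes, which again is no separate evidence. Hspb1 was higher by 5.32 (adjusted p = 1.77e-08), Cryab by 1.57 (adjusted p = 1.1e-05), Bag3 by 1.47 (adjusted p = 8.25e-06), Hspe1 by 1.26 (adjusted p = 0.000107), Serpinh1 by 1.23 (adjusted p = 0.00124) and Hspd1 by 1.03 (adjusted p = 0.000913). With all 6 sham rats as the baseline, Hspe1 (0.92, adjusted p = 0.00708) and Hspd1 (0.74, adjusted p = 0.0193) also passed at day 1. Hspb1, Bag3, Cryab and Serpinh1 were called against each of the 3 baselines, whereas the calls of the mitochondrial pair depended on which sham rats were used. The 3 baselines were set against the same TBI day 1 rats and share sham rats, so they are no separate evidence. The sham day 14 baseline also mixes injury with day: Cryab differed by 0.68 on the log2 scale between the sham groups.

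**Figure D4:**
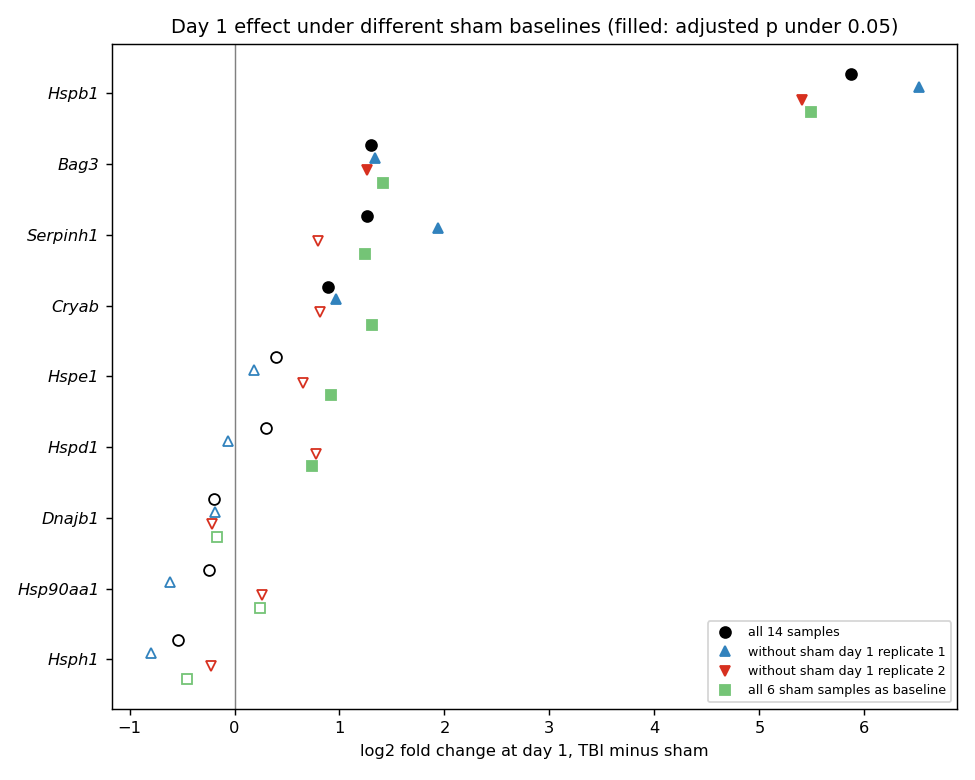
Log2 fold change at day 1 for the 9 tested genes with all 14 samples, without either sham day 1 rat, and with all 6 sham rats as the baseline; filled points have an adjusted p under 0.05. Hspb1 and Bag3 are filled throughout, Serpinh1 and Cryab lose the call without sham day 1 replicate 2, and Hspd1 and Hspe1 gain it with all 6 sham rats.

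Related chaperone genes were taken from 11 lists, with 87 genes listed, 86 in the table and 83 tested. At day 1, 8 (9.64%) were higher and 1 (1.2%) was lower, against 11.2% and 7.93% of all genes, and their log2 fold changes had a median of -0.04. At day 14 edgeR called 0 in either direction, with a median of -0.05. At an unadjusted p under 0.05, 5 were higher and 0 lower at day 14, and DESeq2 called 1 higher, against 674 of all 12875 genes. The share of all genes at the unadjusted threshold was not counted. In edgeR an unadjusted p of 0.0103, that of Bag3, already ranked 867 among all genes at day 14, so 5 of 83 is not read as an excess.

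Of the 9 called genes, the largest change was that of a small heat shock gene. Hspb8, which forms a complex with BAG3, had log2 CPM of 5.08 and 4.15 in sham day 1 and 6.29, 6.85, 5.97 and 6.30 in TBI day 1. Its log2 fold change was 1.71 ± 0.28 (SE, adjusted p = 0.000858), with all TBI samples above sham. At day 14 it was 0.63 (adjusted p = 0.154). It was the 1 called of the 5 tested genes in that list, of which Cryaa (3.12, adjusted p = 0.0554) and Hspb7 (2.44, adjusted p = 0.0567), chosen after their values were seen, had larger fold changes that did not pass. Of the 9 tested HSP70 and HSP110 genes, 2 were higher: Hspa2 by 1.22 ± 0.20 (adjusted p = 0.000745) and Hspa12b by 1.01 ± 0.33 (adjusted p = 0.0469). Among 8 exchange factors and HSP70 partners, Bag1, a sequence relative of Bag3, was higher by 0.47 ± 0.15 (adjusted p = 0.0403). The calls of Hspa12b and Bag1 were lost in 12 and 16 of 25 alternative analyses.

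Of 9 tested genes that fold collagen with Serpinh1, 3 were higher at day 1, against 11.2% of all genes, and the list had a median log2 fold change of 0.44. They were Fkbp10, a prolyl isomerase for procollagen, by 1.54 ± 0.25 (adjusted p = 0.000833), P4hb, protein disulfide isomerase and a subunit of prolyl 4-hydroxylase, by 0.89 ± 0.17 (adjusted p = 0.00246), and Plod3, a lysyl hydroxylase, by 0.74 ± 0.20 (adjusted p = 0.0178). With single samples left out Fkbp10 ran from 1.09 to 2.19 and kept its call, and the Plod3 call was lost in 4 of 25 alternative analyses. Of 6 tested collagen genes, the clients of this machinery, Col4a1 (1.20, adjusted p = 0.00176) and Col6a2 (1.23, adjusted p = 0.0418) were higher at day 1 and 0 at day 14 in edgeR. The Col6a2 call was lost in 13 of 25 alternative analyses. With all 6 sham rats as the baseline Col4a1 was at 0.15 (adjusted p = 0.726), and its call rested on the 2 day 1 sham rats: collagen sums were 260 and 391 CPM in them, 492 to 647 CPM in the injured rats of day 1 and 478 to 868 CPM in the sham rats of day 14.

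The remaining lists had few or no calls at day 1. Among 16 J-domain genes, partners of HSP70, Dnaja4 was lower by 1.04 on the log2 scale (log2 fold change -1.04 ± 0.31, adjusted p = 0.0308) with overlapping groups, and Dnaja1 was at -0.28. Without sham day 1 replicate 2 Dnaja4 was at -0.56 and the call was lost (adjusted p = 0.446), 1 of 4 losses in 25 alternative analyses. Of 8 subunits of the cytosolic chaperonin TRiC, Cct4 was higher by 0.57 ± 0.16 (adjusted p = 0.0206), a call lost in 5 of 25, among them without either sham day 1 rat. In edgeR 0 were called among 3 HSP90 genes (Hsp90ab1 at -0.15), 8 HSP90 co-chaperones (Stip1 at -0.27), 4 heat shock factors (Hsf1 at -0.07 and Hsf2 at -0.10), 6 mitochondrial genes (Hspa9 at 0.07) and 7 endoplasmic reticulum chaperones (Hspa5 at -0.01). Transcript levels of heat shock factors do not measure their activity, which is known to depend on trimer formation and phosphorylation.

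**Figure D5:**
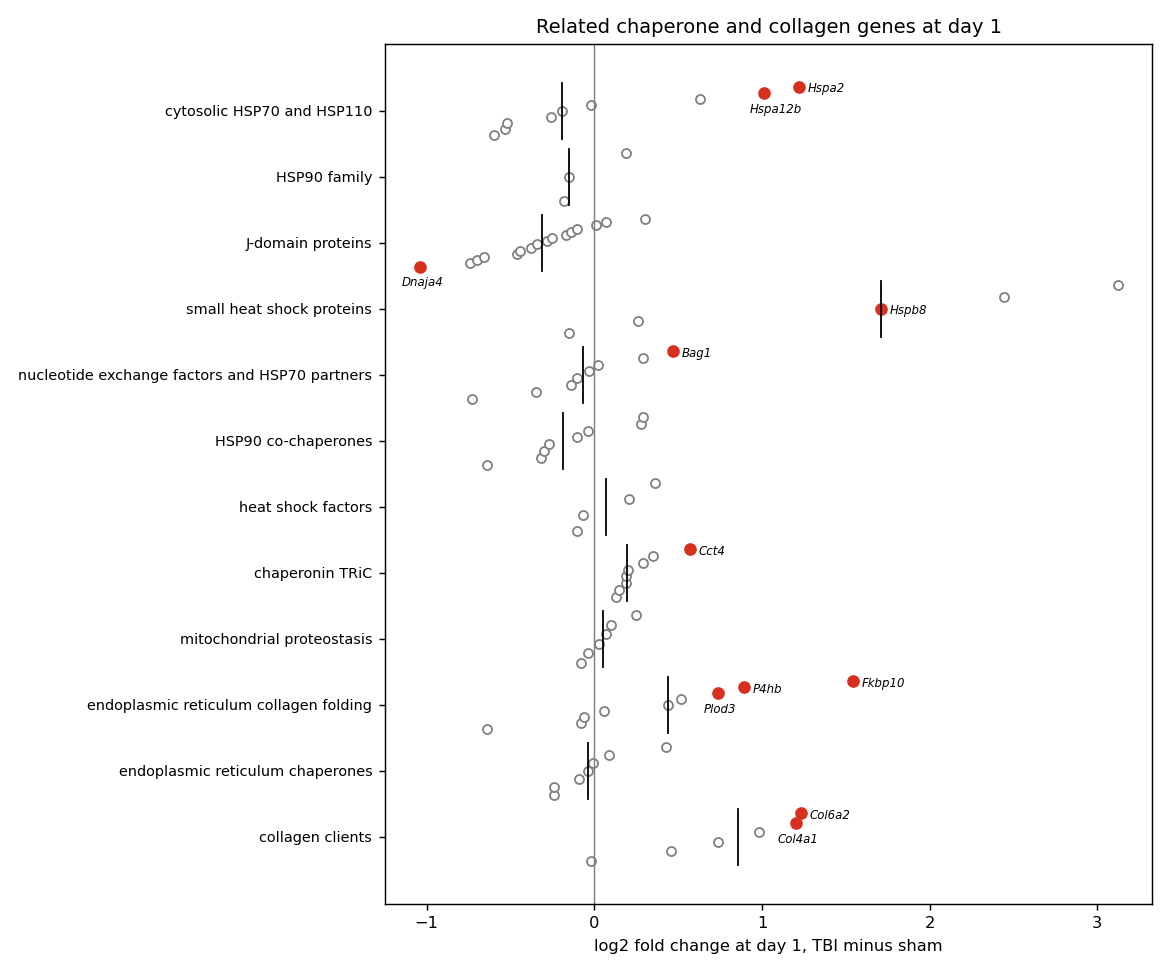
Log2 fold change at day 1 of tested genes in 12 lists of related chaperone and collagen genes. Each point is a gene, red points have an adjusted p under 0.05 and carry the gene name, and the black bar is the median of the list. Hspb8 (1.71) and Fkbp10 (1.54) are the highest red points, and Dnaja4 (-1.04) is the only red point below 0.

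The 3 tested genes with the most similar profile to each of the 4 called members were ranked by root mean square difference of centred log2 CPM over the 14 samples, as a description without a test. For Hspb1 they were Tubb6 (0.433), Sdc1 (0.481) and Timp1 (0.491). For Bag3 they were Npl (0.198), Mob1a (0.214) and Hspa2 (0.216), the last of which is itself an HSP70 gene. For Cryab they were Zbtb7b (0.191), Stk17b (0.21) and Glul (0.223), and for Serpinh1 Stbd1 (0.24), Plcb3 (0.24) and Nme6 (0.255). None of these 12 genes was one of the 10 heat shock genes.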

How the data were processed

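RNA-seq counts of 14 rats were used as deposited: the authors aligned single-end stranded mRNA reads to rn5 with STAR 2.4.2a then counted reads per UCSC gene using featureCounts 1.5.0, without normalization. Strand setting and the treatment of reads with several matches are not given in the sources used here. The labels name no batch, although a figure legend of the authors mentions a correction of expression for batch. No batch term was fitted here. All pairs of replicates differed by more than sampling noise (chi-squared divided by its degrees of freedom, 12.8 to 165).

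The quasi-likelihood test of edgeR 4.0.16 (R 4.3.3) was run on 14 samples in 4 groups, after TMM scaling and removal of low counts with filterByExpr. P-values are two-sided, adjusted by Benjamini-Hochberg over 12875 genes, with a threshold of 0.05. Standard errors were taken from the log2 fold change and F. CPM used TMM-scaled library sizes, and log2 CPM a prior count of 2. On simulated counts for the day 1 comparison (12743 genes), edgeR recovered 42% of 100 2-fold and 79% of 100 4-fold changes, with 7 calls among unchanged genes. The simulation gave each gene the same spread in all groups. In the data, replicate pairs differed by 50.6 to 165 at day 1 and 12.8 to 50.6 at day 14 (chi-squared divided by its degrees of freedom). Recovery at day 1 may therefore be lower, and false calls more frequent, than simulated.

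Alternatives were limma-voom (limma 3.58.1), DESeq2 1.42.0, median-of-ratios factors, no filter, a minimum of 10 counts per sample, the replicate block, only the groups compared, all 6 sham rats as baseline, a choroid plexus score as covariate, an adjusted p under 0.01 and each sample left out. The fit without the 3 libraries that held choroid plexus transcripts was added after seeing the data. Where 1 sham day 1 rat remained, it was assumed to vary like the other groups.

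The 10 genes and all lists were chosen with earlier results of these data known. Named genes were all members, 10 set relatives, up to 3 called genes per related list, and the 3 genes most like each member. Promoters and motif matches came from the RefSeq table of GRCr8; Cryab and Hsp90aa1 were not matched. The oligodendrocyte list was used with 6 genes, since 1 gene is not reported here. Figures were drawn with matplotlib 3.10.9.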

Additional observations from a re-analysis of the deposited data

Results flagged for a closer look

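Dnajb1 in TBI day 1 replicate 1 lay far from the rest of its group: its log2 CPM was 4.87, against 5.51 to 5.64 in the other 3 rats. It was the 1 sample marked among 27 groups of 4 examined, and chance alone marks about 1 in 20 groups. The same library had the lowest neuron marker sum of its group (3380 CPM). The part of tissue make-up in the low Dnajb1 value was not tested.

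The TBI effect on Hspb1 differed between the days, by 4.34 on the log2 scale (day 1 minus day 14, adjusted p = 0.000138, edgeR interaction contrast), with all 4 TBI rats above all sham rats at each day.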

How the results depend on the processing

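Hspb1 kept its call at day 1 (log2 fold change 5.41 to 6.52) and at day 14 (1.36 to 1.80), and Bag3 kept its call at day 1 (1.22 to 1.41), in all 25 alternatives. The day 1 baseline of 2 rats and the simulated recovery of 42% of 2-fold changes limit what the other genes can show. The cause of the changes listed here was not tested, beyond fewer samples in some fits.

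Calls over all genes moved with the setting too. Higher at day 1 were 1437 of 12875 genes in the main analysis and 2292 of 12573 with all 6 sham rats. They were 557 of 12720 with only the groups compared and 788 at an adjusted p under 0.01. For the difference between the days, 288 were higher in the main analysis and 600 in DESeq2. For sham day 1 against sham day 14 they were 1450, but 1196 in limma-voom and 497 at an adjusted p under 0.01. The number of heat shock genes called higher at day 1 was 4. It was 6 with all 6 sham rats as baseline, 2 when only the groups compared were fitted and 2 at an adjusted p under 0.01, and leaving out single samples gave 2 to 4, with 2 without sham day 1 replicate 2. It was 3 without the 3 libraries that held choroid plexus transcripts. For the difference between the days the count of 1 was 2 in DESeq2, and leaving out single samples gave 1 to 2. For sham day 1 against sham day 14 the 3 higher calls were 1 in limma-voom and 0 at an adjusted p under 0.01, and 0 to 4 with single samples left out. The lower calls in that comparison were 0, but 1 without the 3 libraries, and 0 to 1 with single samples left out.

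Of 12875 genes, 1405 were higher at day 1 in limma-voom and 1716 in DESeq2. Lower calls over all genes numbered 1021 in the main analysis, 1438 in DESeq2, 1178 with the replicate block and 94 with only the groups compared. With all 6 sham rats they were 2032 of 12573. At day 14, 524 were higher in the main analysis, 674 in DESeq2 and 903 of 12231 with only the groups compared. Of the related chaperone genes, 8 were higher at day 1, 12 with all 6 sham rats and 10 in limma-voom and in DESeq2. They were 4 when only the groups compared were fitted and 4 at an adjusted p under 0.01. The 1 lower call was 5 in DESeq2, 4 with the replicate block, 0 with only the groups compared, 5 with all 6 sham rats, 2 with the choroid plexus covariate, 0 at an adjusted p under 0.01 and 5 without the 3 libraries, and 0 to 5 with single samples left out. At day 14 the count of 0 higher was 1 in DESeq2, 3 with only the groups compared, 1 with all 6 sham rats and 1 without the 3 libraries, and 0 to 1 with single samples left out.

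Some log2 fold changes close to 0 changed sign. At day 1 with all 6 sham rats these were Hsp90aa1 (0.24), Hsp90ab1 (0.23), Dnaja1 (0.015) and Hsf2 (0.03). Without the 3 libraries they were Hspd1 (-0.08) and Hspa9 (-0.14). Hspa5 was 0.018 with at least 10 counts in every sample and 0.01 with only the groups compared, and Hsf1 was 0.002 with the replicate block. With single samples left out the ranges at day 1 were -0.61 to 0.26 for Hsp90aa1, -0.064 to 0.78 for Hspd1, -0.17 to 0.15 for Hspa5, -0.12 to 0.30 for Hspa9, -0.39 to 0.13 for Hsp90ab1, -0.62 to 0.17 for Dnaja1, -0.22 to 0.094 for Hsf1 and -0.34 to 0.19 for Hsf2. At day 14 Cryab was -0.17 with all 6 sham rats, Hsph1 was 0.002 with the choroid plexus covariate and -0.12 to 0.008 with single samples left out, and Hspd1 was 0.009 with only the groups compared, 0.096 with the covariate and -0.061 to 0.004 with single samples left out.

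Whether replicate numbers pair the samples was not settled. Deviations of same-numbered samples from their group means correlated at 0.13 and 0.07 at day 1 and from -0.04 to 0.24 at day 14. Samples with different numbers were not correlated, so these values have no reference beside them. The sham deviations at day 1 mirror each other, so the day 1 values are not independent. With the replicate number as a block the heat shock genes called higher at day 1 were again 4, and 1 at day 14.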
